A study of Mus musculus with 6 samples.

Results

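The Hox genes encode homeodomain transcription factors that lie in 4 clusters, Hoxa, Hoxb, Hoxc and Hoxd, and are numbered 1 to 13 by their order along the cluster. Low numbers are used toward the head end of the embryo and high numbers toward the tail end, and adult organs keep much of the pattern laid down in the embryo. In the hindgut, which gives rise to the distal colon, group 13 genes and their neighbours mark the posterior end of the tract and are expressed in epithelium, in mesenchyme or in both. The members were taken by name, as every row of the expression table whose symbol is Hox, a cluster letter and a number, and 32 of 19844 genes met this rule. The RefSeq gene table of assembly GRCm38.p6 names 39 such genes. The other 7 (Hoxb1, Hoxc9, Hoxc10, Hoxc11, Hoxc12, Hoxc13 and Hoxd1) had no row that met the rule and were not analysed here. By cluster the listed genes were 11 Hoxa, 9 Hoxb, 4 Hoxc and 8 Hoxd genes.

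Distal colon RNA was sequenced from 6 C57BL6 mice, 3 wild type and 3 ChREBP knockout. All 6 mice had received azoxymethane, a carcinogen, and dextran sulfate sodium, which injures the colon lining, and were sampled on day 17 of that course, so no untreated colon is available for comparison. ChREBP, a glucose-responsive transcription factor, is encoded by Mlxipl, and the series asks whether it acts on colon carcinogenesis through the Wnt pathway. The labels give neither the ages of the mice nor the part of Mlxipl that was deleted or the cells in which it was deleted. Levels are in FPKM, fragments per kilobase of transcript scaled by the mapped fragments of the library, a unit that corrects for transcript length and so allows levels of different genes to be compared. Fold changes compare the knockout with the wild type after taking log2(FPKM + 1), a transform that shrinks differences of weakly expressed genes. They were tested with limma over the 13247 genes that reached 1 FPKM in at least 3 libraries, adjusted by Benjamini-Hochberg and called at an adjusted p under 0.05.

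Mlxipl read 5.84, 7.49 and 7.27 FPKM in the wild-type libraries and 3.40, 5.66 and 5.04 in the knockout libraries, lower but not lost (log2 fold change -0.48, SE 0.18, limma adjusted p = 0.9995). All mice are labelled female, yet the Y-linked gene Eif2s3y lay between 23.28 and 30.75 FPKM and Xist between 0.02 and 0.04 in all 6 libraries. The Y-linked genes Ddx3y (9.51 to 12.11 FPKM), Kdm5d (7.85 to 9.54) and Uty (5.67 to 6.60) were also expressed in all 6. The RNA thus contradicts the label of sex. The estimated depth of the libraries, from the step that a single read makes in short genes, was 17700000 to 18400000 reads. The epithelial markers Epcam (684.86 to 812.18 FPKM) and Cdh17 (192.54 to 272.43 FPKM) were high in all 6 libraries, as were the smooth muscle markers Acta2 (433.98 to 761.46 FPKM) and Des (319.38 to 591.49 FPKM). The samples thus held RNA of muscle as well as epithelium, and fewer cells of a type and less RNA per cell cannot be told apart in it. Of 8 squamous epithelium markers, 6 stayed under 1 FPKM in every library, and the other two, Krt13 and Krt14, were highest in knockout replicate 1 (2.92 and 3.49 FPKM). Of 8 urothelium and reproductive tract markers 5 stayed under 1 FPKM in every library. The others were Upk1a (9.13 to 17.24 FPKM), Pax8 (1.55 to 2.37) and Upk1b (0.39 to 1.46).

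Sequence context is given for 2 sets of elements, and the results below return to the first alone. The first is the miR-196 family, which is encoded inside the clusters: Mir196a-1 lies between Hoxb13 and Hoxb9, and Mir196b between Hoxa9 and Hoxa10. Their mature forms, from RefSeq (GRCm38.p6), are printed with the seed, bases 2 to 8, in capitals.
miR-196a-5p (chr11:96265187-96265208, plus strand): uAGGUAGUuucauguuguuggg
miR-196b-5p (chr6:52230129-52230150, minus strand): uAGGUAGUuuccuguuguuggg
The seeds are identical, and the 2 RNAs match at 21 of 22 positions, with the substitution A12C counted from the 5′ end of miR-196a. The best ungapped pairing of miR-196a in the 3′ UTR of each listed Hox gene was searched in the longest coding transcript of GENCODE M21, with the bases opposite the seed in capitals.
Hoxb8 site: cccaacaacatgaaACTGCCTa
Hoxd8 site: ctcaacaacataaaCTTCCTAa
In Hoxb8 the site made 21 Watson-Crick pairs and 1 G:U pair with the 22 bases of miR-196a, and no other of the 20811 genes searched made more Watson-Crick pairs, and the G:U pair lies opposite position 5 of the seed. The Hoxd8 window made 15 Watson-Crick and 3 G:U pairs and ranked 131 of 20811 genes by Watson-Crick pairs. Its bases in capitals pair only in part with the seed, and the Hoxd8 3′ UTR holds no exact match to the seed. The exact seed match ACTACCT, read on the transcript strand alone, was present in the 3′ UTR of 7 of the 32 listed Hox genes (21.9%), Hoxa4, Hoxa5, Hoxa7, Hoxa9, Hoxb6, Hoxb7 and Hoxc8, against 6.07% of 20931 coding genes. It is absent from the 3′ UTR of Hoxb8, whose site holds the G:U pair. These matches describe the letters and say nothing of repression in these samples.

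The other set is the motif CACGTG, the palindromic E-box core from which the binding elements of ChREBP and many other basic helix-loop-helix factors are built. In the 250 bases before the start site, 22 promoters of 20 listed Hox genes were available from RefSeq, and 3 held the motif (13.6%, against 6.02% of 32851 promoters of the same length). All 3 belong to the posterior Hoxd genes, but the promoters available were uneven by cluster. Every listed Hoxd gene had one, whereas of the Hoxb genes only Hoxb4 and Hoxb8 did. Hoxb13 and Hoxb9 were therefore not searched. Each of the 3 is shown as 60 bases with the motif in capitals.
Hoxd13 (GRCm38.p6, chr2:74667975-74668034, plus strand): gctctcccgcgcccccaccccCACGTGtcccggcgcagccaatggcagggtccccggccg
Hoxd11 (GRCm38.p6, chr2:74682200-74682259, plus strand, 1 of 2 start sites): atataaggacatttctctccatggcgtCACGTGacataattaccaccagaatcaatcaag
Hoxd10 (GRCm38.p6, chr2:74691791-74691850, plus strand): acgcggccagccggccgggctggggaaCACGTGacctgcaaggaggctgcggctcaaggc
The motif begins 229, 96 and 73 bases before the start of Hoxd13, Hoxd11 and Hoxd10. A match is not evidence of binding. The Hox promoters had a median GC content of 56.8% and 12.5 CpG dinucleotides, against 52.4% and 6 for all promoters. The sequence TTTATG, a core recognised by the caudal factors Cdx1 and Cdx2, was present on either strand in 5 Hox promoters (22.7%, against 10.8% of all), those of Hoxa7, Hoxb8, Hoxd11, Hoxd3 and Hoxd4. Its variant TTTATA was in 4 (18.2%, against 12.4%). The longer CCAATAAA, searched as a motif of group 13 Hox factors and not of Cdx, was in 0 (against 1.02%). All motifs were searched on both strands.

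Group 13 genes made up most of the Hox RNA of the distal colon. Summed over the 32 genes, Hox RNA came to between 410.61 and 528.0 FPKM per library, and group 13 (Hoxa13, Hoxb13 and Hoxd13) supplied 67.6% ± 1.86 of it (SD over 6 libraries). Groups 11 to 13 together supplied 72.5% ± 2.06, groups 9 and 10 supplied 16.6% ± 1.44, groups 6 to 8 supplied 3.99% ± 0.565 and groups 1 to 5 supplied 6.94% ± 0.630. By cluster, Hoxb held 57.3% ± 1.54, Hoxa 22.1% ± 2.38, Hoxd 20.5% ± 2.11 and Hoxc 0.0650% ± 0.0182. The Hoxc share rests on 4 listed genes, Hoxc4, Hoxc5, Hoxc6 and Hoxc8. The mean paralog number, weighted by FPKM, was 12.4 ± 0.0582 in Hoxb and 12.1 ± 0.0796 in Hoxd, but 8.28 ± 0.120 in Hoxa, whose RNA was spread along the whole cluster.

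**Figure D1:**
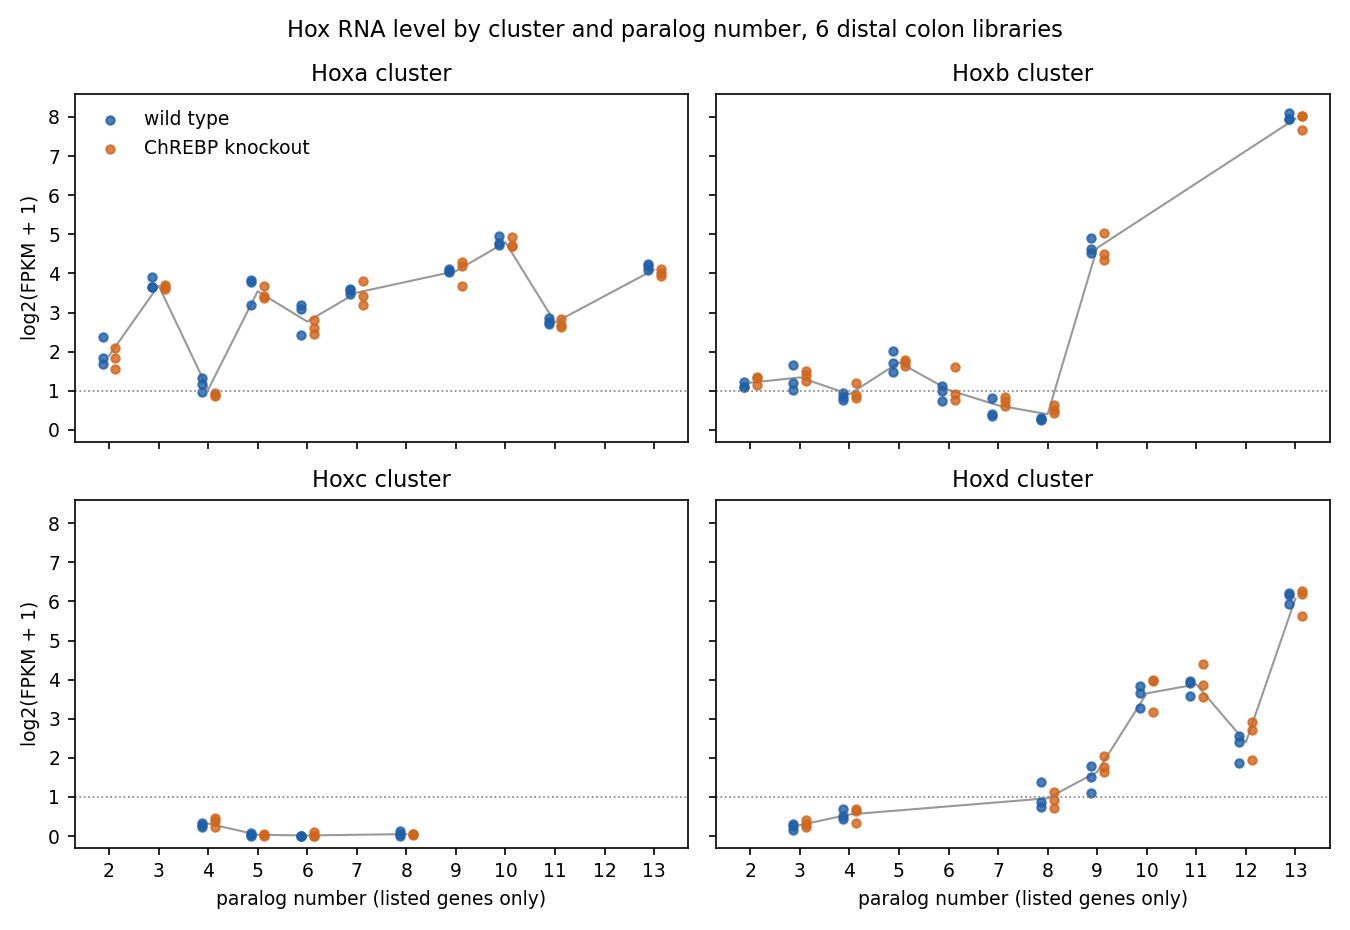
RNA level as log2(FPKM + 1) against paralog number for the listed genes of each cluster from group 2 upward, with 1 point per library (blue wild type, orange knockout), a grey line through the 6-library means and a dotted line at 1 FPKM. Hoxb is low up to group 8 and highest at group 13, Hoxd climbs toward group 13 apart from Hoxd12, Hoxa is filled along its length, and all 4 listed Hoxc genes lie near 0.

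Hoxb13 (NCBI gene 15408, chromosome 11), the most posterior gene of its cluster and one with a known role in the prostate and hindgut, was the highest Hox gene and ranked 258 of 19844 genes by mean FPKM. It read 245.06, 274.23 and 247.89 FPKM in wild type and 203.49, 260.90 and 260.19 in knockout. Knockout replicate 1 was the lowest library and wild-type replicate 2 the highest, and the groups overlapped. These levels lay in the range of other intestinal transcription factor genes, such as Hnf4a, a regulator of enterocyte genes (232.01 to 290.73 FPKM), and Cdx1, a caudal homeobox gene (176.16 to 215.48 FPKM).

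Hoxd13 (NCBI gene 15433, chromosome 2), the paralog needed with Hoxa13 for digit and hindgut formation, followed at 60.15, 70.92 and 73.68 FPKM in wild type and 48.77, 75.90 and 72.37 in knockout. Wild-type replicate 1 and knockout replicate 1 were the lowest libraries of their groups, and the groups overlapped. Hoxa13 (NCBI gene 15398, chromosome 6) read 16.03, 17.30 and 17.80 FPKM in wild type and 16.39, 15.17 and 14.28 in knockout. Knockout replicates 2 and 3 lay below the wild-type range and replicate 1 within it. The order Hoxb13, Hoxd13, Hoxa13 held in 6 of 6 libraries, with Hoxb13 between 3.36 and 4.17 times Hoxd13 and Hoxd13 between 2.98 and 5.07 times Hoxa13.

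The next levels after Hoxb13 and Hoxd13 belonged to Hoxa10 and Hoxb9. Hoxa10 (NCBI gene 15395) read 26.26, 25.27 and 29.99 FPKM in wild type and 25.06, 29.40 and 25.24 in knockout, the highest mean outside group 13. Hoxb9 (NCBI gene 15417) read 21.85, 23.78 and 28.89 FPKM in wild type and 19.21, 31.62 and 21.74 in knockout and was exceeded by Hoxa10 in 5 of 6 libraries. Both genes overlapped between the groups. Hoxa9 (NCBI gene 15405), known for its part in blood progenitors and in gut mesenchyme, read 15.33, 16.22 and 15.70 FPKM in wild type and 17.21, 18.63 and 11.84 in knockout. The 3 wild-type libraries lay close together, between the lowest knockout library and the other two.

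Of the 18 pairs of neighbours in the order of mean level among the 19 tested genes, 3 had ranges over the 6 libraries that did not overlap. These were Hoxb13 over Hoxd13, Hoxd13 over Hoxa10, and Hoxb9 over Hoxa13. The other 15 pairs overlapped, although Hoxa7 exceeded Hoxa6 and Hoxd12 exceeded Hoxa2 in 6 of 6 libraries. Genes further apart in the order could be separated, as Hoxa13 (14.28 to 17.80 FPKM) was from Hoxa6 (4.42 to 8.21 FPKM). Hoxa3 and Hoxd10, for example, had means of 11.96 and 11.9 FPKM and each exceeded the other in 3 of 6 libraries.

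The Hoxd cluster gave the clearest rise along its length. Hoxd3 lay between 0.12 and 0.34 FPKM, Hoxd4 between 0.26 and 0.62, Hoxd8 between 0.64 and 1.63, and Hoxd9 between 1.16 and 3.10. Hoxd10 (NCBI gene 15430) read 8.62, 11.54 and 13.41 FPKM in wild type and 8.08, 14.52 and 14.98 in knockout. Hoxd11 (NCBI gene 15431) read 10.97, 14.11 and 14.69 FPKM in wild type and 10.72, 13.46 and 20.03 in knockout. Both had their lowest value of each group in replicate 1, and both overlapped between the groups. Hoxd12 broke the rise, at 2.62, 4.27 and 4.91 FPKM in wild type and 2.82, 5.58 and 6.53 in knockout, and was exceeded by Hoxd11 in 6 of 6 libraries, between 2.41 and 4.19 times. The RefSeq spans of Hoxd10 and Hoxd11 overlap, so their reads may be shared.

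The Hoxb cluster was divided sharply after group 8. Hoxb2 to Hoxb8 were all low, from Hoxb5 (1.77 to 3.08 FPKM) down to Hoxb8 (0.19 to 0.56 FPKM), whereas Hoxb9 was between 34.3 and 125 times Hoxb8 in the same library. Hoxb2 read 1.13, 1.34 and 1.15 FPKM in wild type and 1.21, 1.55 and 1.51 in knockout, and Hoxb3 read 1.03, 2.18 and 1.30 in wild type and 1.38, 1.64 and 1.84 in knockout. Hoxb5 read 1.77, 3.08 and 2.26 FPKM in wild type and 2.09, 2.44 and 2.36 in knockout. All 3 genes overlapped between the groups, with wild-type replicate 1 the lowest library in each. Under 1 FPKM on average or close to it were Hoxb4 (0.70 to 1.30 FPKM), Hoxb6 (0.67 to 2.04) and Hoxb7 (0.27 to 0.80).

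The Hoxa cluster had no such step. Hoxa3 (NCBI gene 15400), a gene of pharyngeal and neck patterning in the embryo, read 11.54, 13.95 and 11.60 FPKM in wild type and 12.13, 11.50 and 11.04 in knockout, at least 6 and at most 11.2 times Hoxb3. Hoxa5 (NCBI gene 15402), a regulator of lung and gut mesenchyme and of intestinal stem cell fate, read 8.08, 13.29 and 12.66 FPKM in wild type and 9.34, 11.82 and 9.69 in knockout. Wild-type replicate 1 was lowest and the other 2 wild-type libraries were highest, so the knockout libraries lay within the wild-type range. Hoxa7 read 10.16, 10.87 and 11.12 FPKM in wild type and 12.92, 9.75 and 8.12 in knockout, with the knockout libraries on both sides of the wild type.

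Hoxa6 read 4.42, 8.21 and 7.56 FPKM in wild type and 4.45, 6.07 and 5.10 in knockout, again with the lowest wild-type value in replicate 1. Hoxa2 read 2.19, 2.58 and 4.17 FPKM in wild type and 2.59, 3.26 and 1.95 in knockout. Both overlapped between the groups. Hoxa4 was low for its place in the cluster (0.81 to 1.50 FPKM), and Hoxa3 was between 9.13 and 14.2 times Hoxa4, whose span overlaps that of Hoxa3 in RefSeq.

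Hoxa11, a gene of limb, kidney and uterine patterning, was a low point between its neighbours at 5.59, 5.73 and 6.30 FPKM in wild type and 5.18, 5.44 and 6.10 in knockout. Hoxa10 exceeded it between 4.14 and 5.40 times and Hoxa13 between 2.34 and 3.16 times. Its antisense partner Hoxa11os, a long non-coding RNA that overlaps the gene, read 57.24, 61.34 and 62.91 FPKM in wild type and 40.88, 77.24 and 64.73 in knockout, between 7.89 and 14.2 times Hoxa11. No strand-marking step is described for these libraries, and reads of the overlap cannot be assigned to either gene with certainty. Spans of 19 of the 32 listed genes overlap another RefSeq gene, and their levels carry the same limit.

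The 4 listed Hoxc genes were close to absent. Hoxc9, Hoxc10, Hoxc11, Hoxc12 and Hoxc13 were not among the listed genes, so the posterior part of this cluster has no values here. Hoxc4 lay between 0.17 and 0.37 FPKM, Hoxc5 between 0.00 and 0.06 and Hoxc8 between 0.00 and 0.10. Hoxc6 was listed at 0 in 5 libraries and at 0.07 FPKM in knockout replicate 2. Hox genes of the same group differed between clusters accordingly, with Hoxa5 between 4.11 and 5.60 times Hoxb5 and Hoxa7 between 10.2 and 37.6 times Hoxb7, each higher in 6 of 6 libraries.

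No Hox gene passed the test of genotype. Of the 32 listed genes 19 passed the filter on low values (9 Hoxa, 5 Hoxb and 5 Hoxd genes), and limma called 0 of them at an adjusted p under 0.05, against 0.0151% of all genes tested. At an unadjusted limma p under 0.05 there were also 0 of 19, against 3.4% of all genes, and 0 of 19 had groups that did not overlap, against 8.67% of all genes. Log2 fold changes were positive for 6 genes and negative for 13, and their median was -0.06, where that of all genes was 0.01. The 95% intervals of 19 of 19 Hox genes stayed inside a 2-fold change either way after the log2(FPKM + 1) transform, as did those of 97% of all genes.

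The group 13 genes, which supply most Hox RNA, overlapped between the genotypes. The mean of Hoxb13 was 256 ± 16.1 FPKM (SD, n = 3) in wild-type and 242 ± 32.9 FPKM (SD, n = 3) in knockout libraries, a log2 fold change of -0.09 (SE 0.13) with a 95% interval of -0.38 to 0.20. Hoxd13 averaged 68.2 ± 7.15 and 65.7 ± 14.8 FPKM, with an interval of -0.48 to 0.33. Hoxa13 averaged 17.04 ± 0.912 and 15.3 ± 1.06 FPKM, a log2 fold change of -0.15 (SE 0.10) and an interval of -0.37 to 0.08. The limma adjusted p was 0.9995 for each of the 19 genes.

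The 9 tested Hoxa genes all had negative log2 fold changes, from -0.29 for Hoxa6 to -0.01 for Hoxa9 (median -0.09). That direction held after rescaling to a common library total and after quantile normalization, but 5 of the 9 changed sign when a library was left out. Knockout replicate 3 was the lowest library for 5 of the 9 genes. Of the 5 tested Hoxd genes 4 had positive log2 fold changes, from 0.11 for Hoxd11 to 0.34 for Hoxd9, and Hoxd13 was at -0.08. Hoxd9, whose fold change was the largest, read 1.16, 1.85 and 2.46 FPKM in wild type against 2.11, 3.10 and 2.41 in knockout. The lowest of these was wild-type replicate 1, and the groups overlapped. The unadjusted limma p of Hoxd9, the smallest of the 19 genes, was 0.119 (adjusted p = 0.9995).

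**Figure D2:**
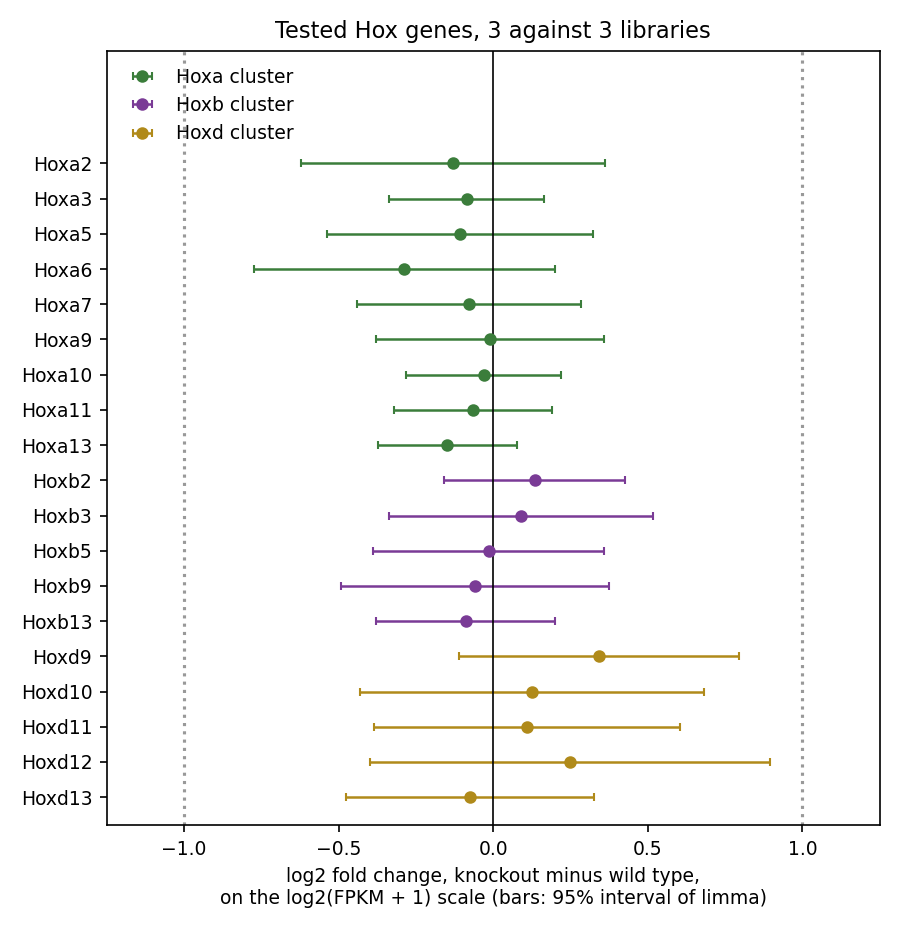
Log2 fold change, knockout minus wild type, with 95% intervals from limma for the 19 tested Hox genes, coloured by cluster; dotted lines mark a 2-fold change on the log2(FPKM + 1) scale. Every interval crosses 0 and lies between the dotted lines, with all Hoxa genes left of 0 and 4 of 5 Hoxd genes right of it.

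Of the 13 genes under the filter, 2 had groups that did not overlap. Hoxb8, the gene with the miR-196 site shown above, read 0.21, 0.19 and 0.24 FPKM in wild type and 0.56, 0.34 and 0.42 in knockout. Hoxa4 read 0.95, 1.50 and 1.27 FPKM in wild type and 0.94, 0.81 and 0.84 in knockout. All knockout values lay above all wild-type values for Hoxb8, as for 4.53% of all genes tested, and below them for Hoxa4, as for 4.14%. Both shares are over genes that passed the filter, and the share among genes under it was not taken. With no filter on low values Hoxb8 had a log2 fold change of 0.24 (SE 0.06, limma adjusted p = 0.986) and Hoxa4 one of -0.26 (SE 0.11, limma adjusted p = 0.986). Neither passed, and the counting error of these low values is unknown.

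Transcripts across the miR-196 hairpins were low and variable. Mature miRNAs carry no poly-A tail, so the reads come from longer RNAs that cross the hairpin and do not measure the mature forms. Mir196a-1 read 6.66, 19.71 and 9.36 FPKM in wild type and 9.02, 11.77 and 7.49 in knockout, which at the estimated depths equals 8, 23 and 11 reads and 11, 14 and 9 reads. Mir196b read 14.61, 5.79 and 12.65 FPKM in wild type and 2.21, 9.09 and 6.75 in knockout, equal to 13, 5 and 11 reads and 2, 8 and 6 reads. Both overlapped between the groups, and counts of this size do not resolve a difference.

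Libraries of the same genotype differed in Hox RNA, and differently by cluster. The median coefficient of variation over the 6 libraries was 14.4% for tested Hoxa genes, 18.7% for Hoxb genes and 25.0% for Hoxd genes, against 12.97% for all genes tested. Wild-type replicate 1 or knockout replicate 1 was the lowest library for 14 of the 19 genes, 7 each, and for 5 of the 5 Hoxd genes. Summed Hoxd RNA was 84.74, 104.09 and 111.63 FPKM in wild type and 73.84, 114.02 and 118.46 in knockout. Summed Hoxb RNA was 272.77, 306.81 and 284.63 FPKM in wild type and 229.92, 301.34 and 291.76 in knockout. Replicate 1 was thus the lowest library of its group in both sums.

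Summed Hoxa RNA followed another order, at 100.79, 115.15 and 118.66 FPKM in wild type and 106.64, 112.13 and 94.40 in knockout, lowest in knockout replicate 3. That library had the highest Hoxd sum. It also had the highest summed smooth muscle markers (4581 FPKM, against 2777 to 3792 in the other libraries) and the highest TALE cofactor sum. The 2 sums did not keep the same order elsewhere. Knockout replicate 2, with a Hoxd sum of 114.02 FPKM, had a smooth muscle sum of 2980 FPKM. Knockout replicate 1, with a Hoxd sum of 73.84 FPKM, had one of 3173 FPKM. Knockout replicate 1, the lowest for Hoxb and Hoxd, had the highest summed epithelial markers (8735 FPKM, against 7749 to 8281 in the others). Its squamous marker sum was also the highest, at 7.81 FPKM against 1.46 to 3.52 in the others, and its fibroblast marker sum (900.21 FPKM) lay within the range of the other libraries, 799.38 to 979.93. The smooth muscle list had 10 positive and 0 negative log2 fold changes among 10 tested, none called (median 0.17). Whether the cell makeup of the samples has a part in the Hox values was not tested.

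**Figure D3:**
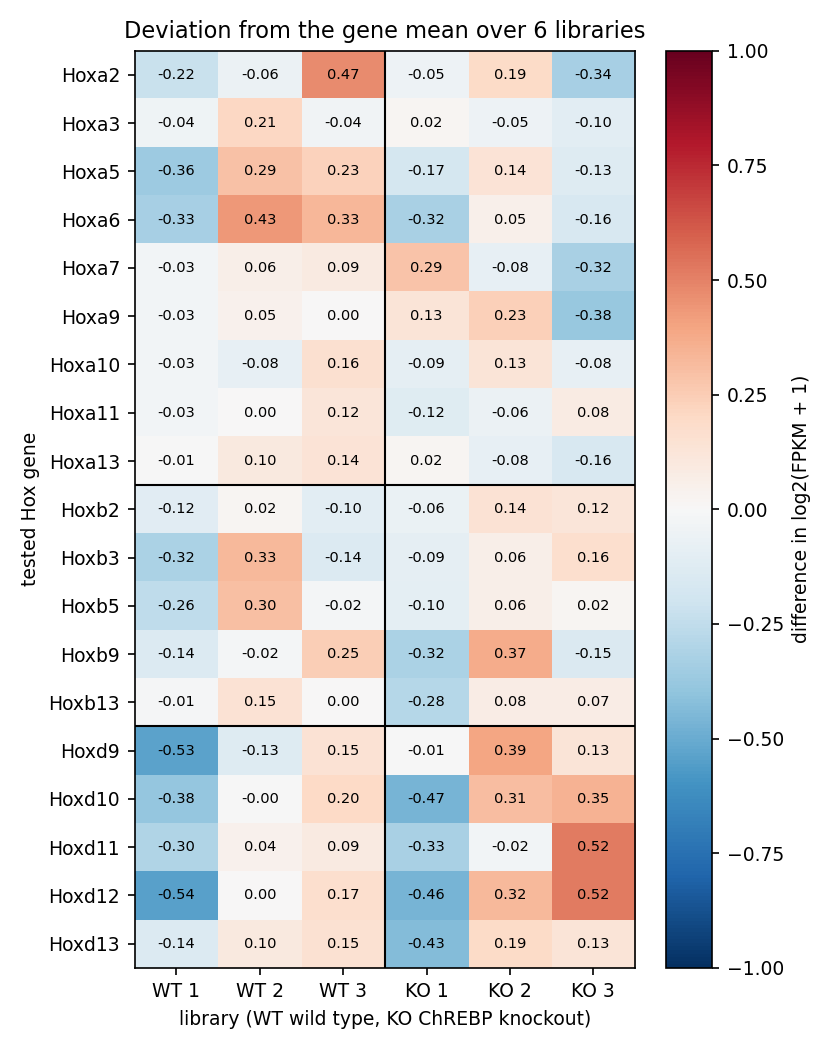
Deviation of each library from the gene's mean over 6 libraries, in log2(FPKM + 1), for the 19 tested Hox genes; red is above and blue below the mean, and lines separate clusters and genotypes. The Hoxd rows are blue in replicate 1 of both genotypes, almost white for Hoxd9 in the knockout, and red in knockout replicates 2 and 3 except for Hoxd11 in replicate 2.

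**Figure D4:**
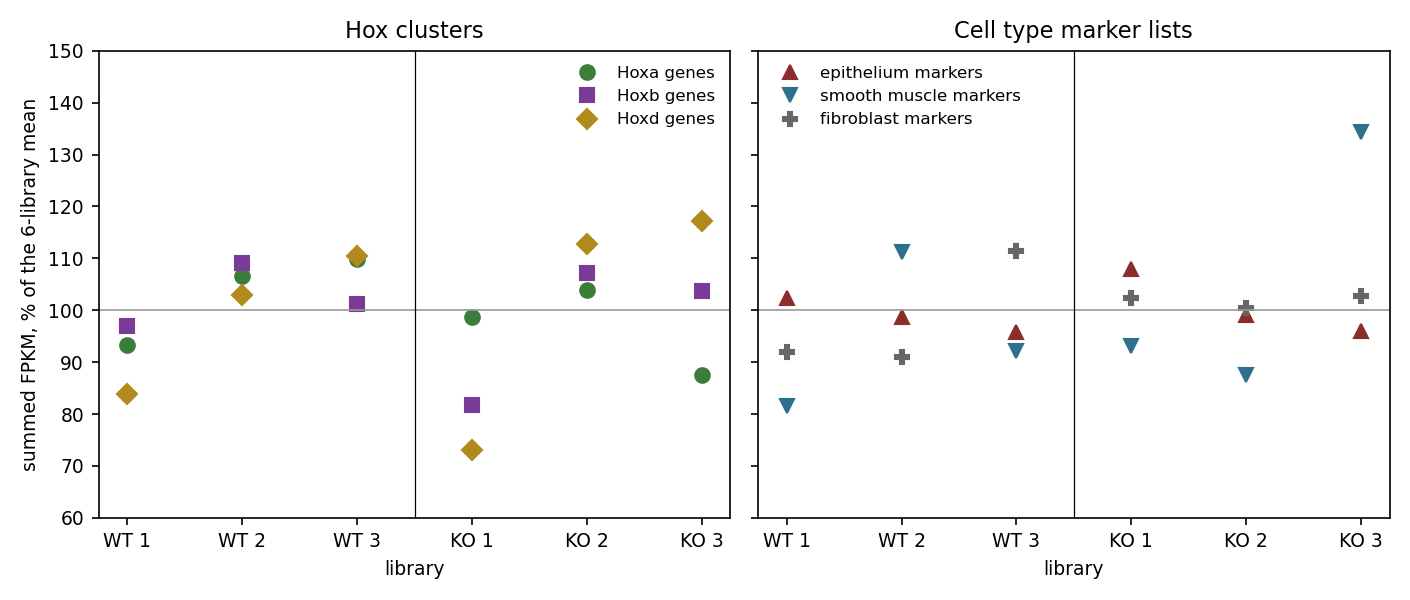
Summed FPKM of the listed Hoxa, Hoxb and Hoxd genes (left) and of epithelium, smooth muscle and fibroblast marker lists (right) per library, each as a percent of its mean over 6 libraries. The Hoxd sum is lowest in knockout replicate 1 and highest in knockout replicate 3, the library in which the Hoxa sum is lowest and the smooth muscle sum highest.

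Taking all Hox genes together, the summed level was 500.05 ± 36.3 FPKM (SD, n = 3) in the wild-type group and 481 ± 62.2 FPKM (SD, n = 3) in the knockout group, a ratio of 0.962. The ratio was 0.936 for Hoxa, 0.952 for Hoxb and 1.02 for Hoxd. Without knockout replicate 1 the ratio was 1.03 for Hoxb and 1.16 for Hoxd, and without wild-type replicate 1 it was 0.947 for Hoxd. The mean paralog number over all Hox RNA was 11.4 ± 0.102 in wild type and 11.4 ± 0.140 in knockout, a difference of -0.03. These sums are descriptions of the members and were not tested.

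Other transcripts of the clusters were also not called. Of 32 non-coding and flanking genes on the list 21 were in the table and 15 were tested, with 7 positive and 8 negative log2 fold changes and 0 called. Hottip, a long non-coding RNA at the 5′ end of the Hoxa cluster that acts on the posterior Hoxa genes, read 13.48, 14.15 and 12.32 FPKM in wild type and 7.56, 13.80 and 10.99 in knockout. Knockout replicate 1 was again the lowest, as it was for Hoxa11os. Hotairm1, at the opposite end of the cluster, lay between 2.23 and 5.18 FPKM. Outside the clusters, the flanking genes Hibadh (40.07 to 54.71 FPKM), Skap2 (30.87 to 39.78), Mtx2 (25.43 to 29.00), Ttll6 (11.70 to 25.98) and Calcoco1 (12.24 to 22.36) were expressed at levels that overlapped between the groups. Evx2, the homeobox gene next to Hoxd13, lay between 1.53 and 3.06 FPKM, well under Hoxd13.

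The partners of Hox proteins in DNA binding, the TALE homeodomain factors, were expressed above 1 FPKM apart from Pbx4 (0.21 to 0.62 FPKM). Of 9 tested members 6 had positive and 3 negative log2 fold changes (median 0.07) and 0 were called. Pbxip1, a PBX-binding protein gene, lay between 45.36 and 60.24 FPKM, Pbx2 between 14.82 and 23.64, Pbx3 between 7.89 and 11.44 and Pknox1 between 6.05 and 7.67. Meis3 read 3.30, 4.58 and 3.92 FPKM in wild type and 3.96, 5.85 and 6.70 in knockout. The cofactor sum was highest in knockout replicate 3, at 130.1 FPKM, where the smooth muscle markers were also highest. Both this sum and the counts above include Pbxip1, which is not itself a homeodomain factor and read 60.24 FPKM in that library.

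Genes that set up or maintain Hox expression gave the same result. Among ParaHox and gut patterning factors 14 were tested, with 8 positive and 6 negative log2 fold changes and 0 called, and the abundant members included Hnf4a, Cdx1, Foxa1 (33.09 to 37.08 FPKM) and Gata6 (17.62 to 20.07). Cdx2, the caudal factor of intestinal identity, read 14.66, 14.45 and 17.90 FPKM in wild type and 22.01, 15.41 and 11.64 in knockout, with knockout libraries on both sides of the wild type. Of 29 tested Polycomb genes, which keep silent Hox genes repressed, 12 had positive and 17 negative log2 fold changes and 0 were called. The most abundant were Rbbp7 (44.54 to 56.84 FPKM), Phc2 (27.68 to 31.84) and Rbbp4 (20.15 to 23.84). Of 20 tested Trithorax and insulator genes, which sustain active Hox genes and bound their domains, 6 had positive and 14 negative log2 fold changes and 0 were called, with Rad21 (54.03 to 66.15 FPKM), Dpy30 (42.05 to 55.74) and Ctcf (19.85 to 30.45) the most abundant.

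Retinoic acid, a signal that activates Hox genes in order along the cluster in the embryo, was represented by 16 tested genes, with 10 positive and 6 negative log2 fold changes and 0 called. Dhrs3, a retinaldehyde reductase, lay between 20.65 and 56.15 FPKM, Rxrb between 22.41 and 27.32, Rxra between 19.81 and 24.58, Aldh1a1, a retinoic acid synthesis enzyme, between 13.48 and 23.03, and Rdh10 between 13.08 and 19.93. Dhrs9 read 8.84, 7.16 and 9.26 FPKM in wild type and 39.71, 7.57 and 2.30 in knockout, so that its knockout mean rests on replicate 1. Over the 6 lists 103 genes were tested, 0 were called by limma, and 4 had an unadjusted p under 0.05, where 3.4% of all genes did. They included Pcgf3 (a Polycomb gene, log2 fold change of -0.38), Kdm6b (a histone H3 demethylase gene, -0.41) and Cyp26b1 (a retinoic acid-degrading enzyme gene, 1.27), each with a limma adjusted p of 0.9995 and singled out after their values were seen. Cyp26b1 read 0.91, 1.36 and 0.66 FPKM in wild type and 1.65, 3.08 and 8.75 in knockout, highest in knockout replicate 3.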

How the data were processed

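FPKM values for 19844 genes in 6 libraries were deposited by the authors as a single table. Per the labels' protocols, poly-A RNA was selected, fragmented and copied with random primers, and no step that marks strand is named. Alignment and quantification tools (HISAT2 and RSEM) and the build (mm39) are as listed per the submitters' processing notes, without versions or filters. Genes reaching 1 FPKM in at least 3 libraries were kept, and their log2(FPKM + 1) values were fitted in R 4.3.3 by limma 3.58.1 (moderated fit with a mean-variance trend, genotype as the sole term, two-sided). The code was tested on simulated data. Promoter, miRNA and gene tables came from RefSeq (GRCm38.p6) and transcripts from GENCODE M21, matched by gene number or symbol. That build differs from mm39, and the coordinates printed belong to GRCm38.p6. Depth estimates used 350 short genes of non-coding RNA, where between 83.8% and 89.9% of low values lay within 0.05 of a whole number of reads after a length offset of 36 bases. Reads were not recovered for longer genes, so per-gene counting error is unknown. Groups came from the genotype label. P-values measure the spread between the 3 mice per group that the series' design text gives. The members and lists were chosen with earlier results of these data known. Some genes of the lists are not reported here. All tested Hox genes are named, and up to 6 members of each other list by mean level, with further members singled out after their values were seen. Alternatives were another pseudocount, filter, scaling or spread model, a replicate block, and leaving out each library. Python 3.11.15 with pandas 2.3.3, numpy 2.4.6 and matplotlib 3.10.9 made the tables and figures.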

Additional observations from a re-analysis of the deposited data

How the results depend on the processing

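Over 15 alternatives the count of called Hox genes was 0 in every one, as was that of called genes on the other lists, and the adjusted limma p of the 19 tested Hox genes lay between 0.796 and 1. The direction of their log2 fold changes was the same under each change of pseudocount, filter, scaling, spread model and with the replicate block, and 21 of 285 values changed sign, all when a library was left out. The ranges without 1 library were -0.10 to 0.039 for Hoxa10, -0.27 to 0.075 for Hoxa2, -0.31 to 0.012 for Hoxa5, -0.24 to 0.06 for Hoxa7, -0.13 to 0.18 for Hoxa9, -0.15 to 0.029 for Hoxb13, -0.050 to 0.27 for Hoxb3, -0.15 to 0.13 for Hoxb5, -0.26 to 0.085 for Hoxb9, -0.036 to 0.39 for Hoxd10, -0.12 to 0.30 for Hoxd11 and -0.19 to 0.12 for Hoxd13. The other 7 genes kept their sign throughout. The number of genes called in all was 2 in the main test, 4 with a filter at 0.1 FPKM, 0 with the replicate block, and between 0 and 1 without 1 library; the cause was not tested. The summed Hox ratio lay between 0.915 and 1.03 and the difference in mean paralog number between -0.10 and 0.04 without 1 library. Same-numbered samples did not deviate together in each pair (correlations of 0.270, -0.096 and 0.063 across genes), so the replicate block is an alternative alone. Reads per Hox gene were not recovered, so the counting error of the low values is unknown.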
